A study of Rattus norvegicus with 22 samples.

Results

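The small leucine-rich proteoglycan (SLRP) genes encode secreted matrix proteins built on a core of leucine-rich repeats, most of which carry glycosaminoglycan chains. A list of 10 such genes was looked up by gene symbol among the 32883 genes of the count table. Of the 10, 8 were found, namely Dcn, Bgn, Lum, Fmod, Prelp, Omd, Ogn and Aspn, while Podn and Ecm2 were not matched by symbol and are not analysed here. At least 1 read was counted for 7 of the 8, and 5 passed the filter on low counts over all 22 rats, which 15562 of all genes passed. The 5 tested genes are Dcn (ENSRNOG00000004554), Bgn (ENSRNOG00000055962), Lum (ENSRNOG00000004610), Fmod (ENSRNOG00000003183) and Prelp (ENSRNOG00000003120).

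RNA of the ventral cervical spinal cord was sequenced from 22 Sprague-Dawley rats aged 3 to 4 months, with 1 library per rat. The groups were 5 males with testes (intact males), 5 gonadectomized males (GDX males), 6 virgin females with ovaries (intact females) and 6 ovariectomized virgin females (OVX females). Tissue of GDX and OVX rats was taken 2 weeks after surgery, and the controls were gonad-intact rats of matching age. The surgeries were done under isoflurane after buprenorphine, and the paper names no sham surgery. Loss of the gonads and the surgery with its drugs thus cannot be told apart. All rats were perfused with saline, and the dorsal part of the cervical segments had been discarded. Rats are named by their group and the number in the labels. The libraries fell into a class with shorter and a class with longer average fragments. Intact males 1, 3 and 6 and intact females 2, 3, 5 and 6 were in the longer class, and all GDX and OVX libraries were in the shorter one, so that class and gonadectomy overlap.

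SLRP core proteins bind fibrillar collagens and set the spacing and thickness of fibrils, and several also bind growth factors or innate immune receptors. Around the central nervous system they are known from the connective tissue of the meninges, from perivascular fibroblasts and from the sheaths of nerve roots. Decorin is also known as a binder of transforming growth factor beta that limits scar matrix after spinal cord injury.

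Between 12371756 and 17571887 reads were counted per library. Levels are given as CPM, the counts of a gene scaled to the library's total with edgeR's TMM factors. Transcript lengths were not used here, so levels of different SLRP genes are not compared, and the most abundant gene of a marker list is the one with the most counts, whatever its length. Markers of the tissue were present in every group. The most abundant motor neuron marker, Prph, averaged 224 CPM in intact males and 213 CPM in GDX males. The Hox gene Hoxc4, which marks cervical levels, averaged 13.4 CPM in intact males and 11.3 CPM in GDX males, while genes of forebrain and lumbar cord summed to between 1.16 and 1.44 CPM in the group means.

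The 5 tested SLRP genes were all higher in GDX than in intact males. They did not pass the test between OVX and intact females, and 3 of the 5 were called lower in intact males than in intact females. The mean of each of the 5 genes was lowest in intact males. In bulk tissue, fewer cells of a type and less RNA per cell cannot be told apart.

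Decorin and biglycan carry chondroitin or dermatan sulfate chains. Dcn stood at 9.09, 14.3, 19.6, 7.55 and 6.63 CPM in intact males 1, 2, 3, 5 and 6, and at 12.1, 19.5, 28.8, 28.9 and 23.7 CPM in GDX males 1, 2, 4, 5 and 6. In females the lowest, median and highest levels of Dcn were 18.3, 23.1 and 35.7 CPM in intact rats and 19.97, 23.4 and 41.2 CPM after OVX. Intact male 3 was the high rat and GDX male 1 the low rat of the male groups, which overlapped, while 4 of the 5 intact males were below every intact female. The means of Dcn were 11.4 ± 5.45 CPM in intact males and 22.6 ± 7.07 CPM in GDX males (SD, n = 5 each), and 25.4 ± 6.53 CPM in intact females and 26.9 ± 8.13 CPM in OVX females (SD, n = 6 each). From 101 to 552 reads per library stood behind these values.

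Bgn, the gene of biglycan, which in soluble form is a ligand of Toll-like receptors, stood at 17.8, 15.1, 16.7, 14.1 and 13.4 CPM in the intact males in the same order of rats. The GDX males stood at 16.2, 20.7, 23.8, 31.4 and 24.5 CPM. In females the lowest, median and highest levels of Bgn were 13.4, 18.5 and 28.5 CPM in intact rats and 18.2, 22.5 and 26.1 CPM after OVX. GDX male 1 lay within the range of the intact males and the other 4 GDX males above it, while all 6 OVX females were inside the range of the intact females. The means of Bgn were 15.4 ± 1.81 CPM in intact males and 23.3 ± 5.56 CPM in GDX males (SD, n = 5 each), and 19.1 ± 5.82 CPM in intact females and 22.4 ± 3.36 CPM in OVX females (SD, n = 6 each).

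Lumican, fibromodulin and PRELP form another class of the family, in which lumican and fibromodulin can carry keratan sulfate and PRELP has a basic amino-terminal end that binds heparan sulfate. Lum stood at 3.03, 3.91, 6.56, 2.29 and 1.84 CPM in intact males 1, 2, 3, 5 and 6, and at 5.23, 5.62, 9.66, 8.59 and 6.13 CPM in GDX males 1, 2, 4, 5 and 6. In females the lowest, median and highest levels of Lum were 3.94, 5.29 and 8.70 CPM in intact rats and 5.17, 6.71 and 9.33 CPM after OVX. Intact male 3 was the high rat of its group, as for Dcn. In Lum it was above 3 GDX males, and the other 4 intact males were below every GDX male. Lum rested on the fewest reads of the 5 genes, 28 to 154 per library. Its means were 3.53 ± 1.87 CPM in intact males and 7.05 ± 1.96 CPM in GDX males (SD, n = 5 each), and 5.75 ± 1.85 CPM in intact females and 7.10 ± 1.73 CPM in OVX females (SD, n = 6 each).

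Fmod, the gene of fibromodulin, stood at 12.9, 6.64, 9.96, 6.997 and 5.32 CPM in the intact males and at 11.9, 13.8, 21.1, 41.7 and 23.0 CPM in the GDX males, in the same order of rats. In females its lowest, median and highest levels were 8.43, 19.9 and 23.7 CPM in intact rats and 13.04, 19.8 and 24.7 CPM after OVX. Intact male 1 was above GDX male 1, which is the only overlap of the male groups, and GDX male 5 was higher than any other of the 22 rats. The means of Fmod were 8.36 ± 3.05 CPM in intact males and 22.3 ± 11.8 CPM in GDX males (SD, n = 5 each), and 17.8 ± 6.52 CPM in intact females and 19.5 ± 4.42 CPM in OVX females (SD, n = 6 each).

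Prelp stood at 10.9, 16.1, 14.9, 16.6 and 8.34 CPM in the intact males and at 16.3, 21.1, 21.6, 33.9 and 27.3 CPM in the GDX males. In females its lowest, median and highest levels were 13.9, 22.7 and 25.6 CPM in intact rats and 14.6, 23.4 and 29.7 CPM after OVX. Intact male 5 was slightly above GDX male 1, and the remaining rats of the male groups were separate. The means of Prelp were 13.4 ± 3.58 CPM in intact males and 24.0 ± 6.73 CPM in GDX males (SD, n = 5 each), and 21.3 ± 4.79 CPM in intact females and 23.2 ± 5.06 CPM in OVX females (SD, n = 6 each).

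**Figure D1:**
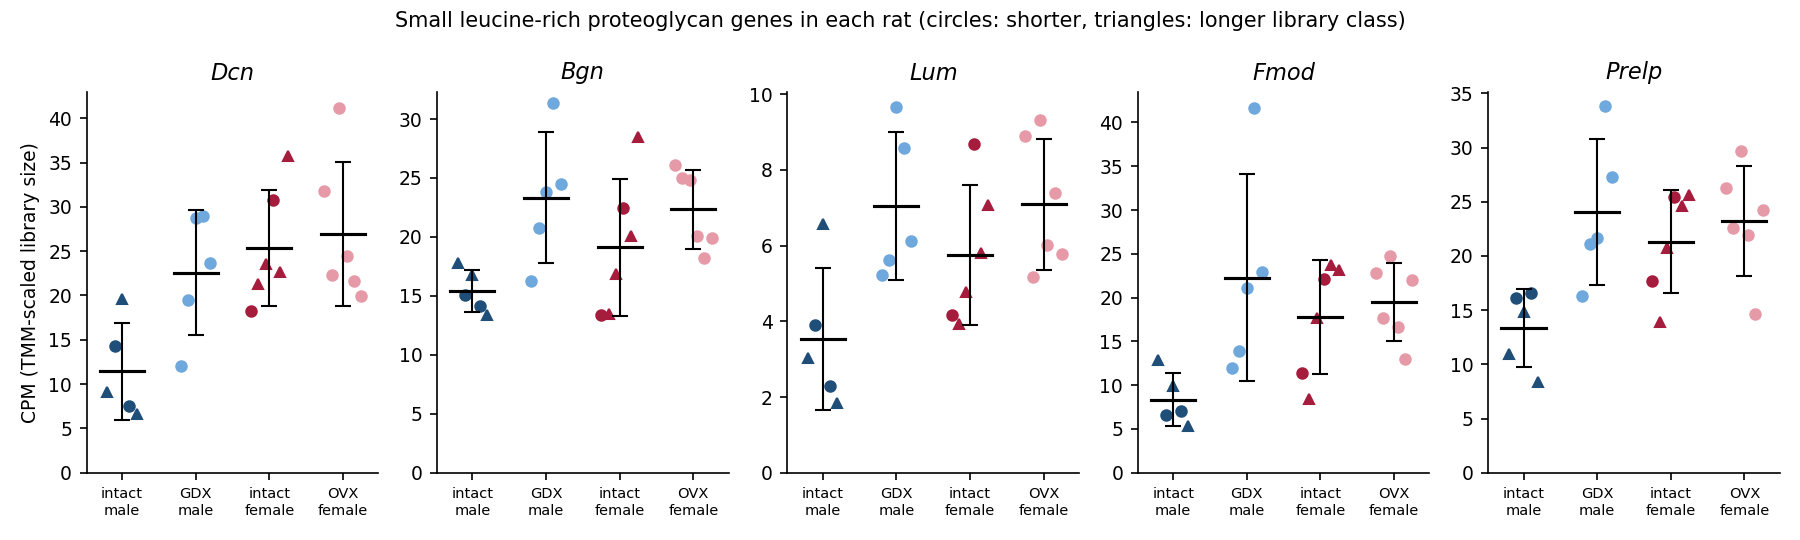
CPM of Dcn, Bgn, Lum, Fmod and Prelp in each of the 22 rats by group, with circles for the shorter and triangles for the longer library class, and with lines and bars for the mean and SD. The intact males have the lowest mean in each panel, such as 8.36 CPM for Fmod against 22.3 CPM in GDX males.

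In the order of the group means, intact males were lowest for each of the 5 genes. Among the other 3 groups, neighbouring means were closer to each other than the SD of either group, which describes the spread of single rats and is not a test of their order. The step from intact males to the next group exceeded the SD of both groups for Dcn, Lum, Fmod and Prelp, and for Bgn it was smaller than the SD of the intact females, and the tests of these comparisons are given below. GDX males were not tested against intact females.

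Omd, Ogn and Aspn, which encode osteomodulin, osteoglycin and asporin of bone, cartilage and other connective tissue, were at or near 0. No read of Omd was counted in any of the 22 libraries, which allows a level of up to 0.171 to 0.242 CPM depending on the library (3 counts, counting error only). Ogn had 65 reads in 17 libraries, with 0 to 14 per library, and Aspn had 10 reads in 4 libraries. Mean levels of Ogn were 0.101 CPM in intact males, 0.296 CPM in GDX males, 0.285 CPM in intact females and 0.132 CPM in OVX females, with an SD of 0.121 to 0.372 CPM. At this depth no difference in these 3 genes was detectable, and without the filter on low counts edgeR's adjusted p of Ogn and Aspn lay between 0.433 and 0.966 over the 6 comparisons.

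In the rat gene order of RefSeq (GRCr8), Dcn and Lum are direct neighbours, followed by Kera and Epyc of the same family. Prelp and Fmod are also direct neighbours, with Optc on the other side of Prelp. Ogn, Omd and Aspn stand side by side. While Dcn and Lum were counted in all 22 libraries, Kera had 0 reads and Epyc 2 reads in total. The 3 genes beside each other that include Omd were all below the filter.

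Promoters in RefSeq were matched by symbol for 7 of the 10 genes, namely Lum, Fmod, Omd, Ogn, Aspn, Podn and Ecm2, and not for Dcn, Bgn and Prelp. The 250 bases upstream of the start are printed for Lum and Fmod, since these genes were tested and moved together in the male comparison. The Lum sequence is chr7:34245456-34245705 and the Fmod sequence chr13:48045317-48045566, both GRCr8, plus strand, 5′ to 3′. Capitals mark matches on either strand to 6 motifs searched.

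Lum: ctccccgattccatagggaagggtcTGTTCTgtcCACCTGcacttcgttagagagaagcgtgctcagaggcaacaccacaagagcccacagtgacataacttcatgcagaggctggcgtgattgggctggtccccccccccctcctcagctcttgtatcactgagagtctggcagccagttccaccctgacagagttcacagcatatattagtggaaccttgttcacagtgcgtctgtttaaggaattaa

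Fmod: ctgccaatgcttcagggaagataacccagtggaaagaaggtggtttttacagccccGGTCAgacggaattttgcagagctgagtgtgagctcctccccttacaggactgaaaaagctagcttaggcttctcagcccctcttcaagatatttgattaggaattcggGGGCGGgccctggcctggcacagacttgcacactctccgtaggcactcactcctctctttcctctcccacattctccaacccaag

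The motifs were a half-site of the androgen and glucocorticoid receptors (AGAACA), a half-site of the estrogen receptor and other nuclear receptors (GGTCA), the GC box (GGGCGG), the box named after its letters (TATAAA), the AP-1 motif (TGANTCA) and the E-box (CANNTG). The Lum sequence held 1 match to the androgen receptor half-site, as its reverse complement, and 1 match to the E-box. The Fmod sequence held 1 match to the estrogen receptor half-site and 1 match to the GC box. No matches overlapped in these sequences. Of 33469 promoter windows of the same 250 bases, 17.5% held the androgen receptor half-site, 35.4% the estrogen receptor half-site, 30.5% the GC box, 12.9% the box of 6 letters TATAAA, 6.34% the AP-1 motif and 65.5% the E-box. A match is a string of letters and was not tested for binding. Lum and Fmod thus shared no matched motif in this window, and both windows had a GC content of 52.8%.

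The male comparison asks what changes in the cord of males 2 weeks after the testes are removed. All 5 tested SLRP genes were called higher in GDX than in intact males at an adjusted p under 0.1. Of the 14931 genes tested, 6.78% were called higher and 6.58% lower. The SLRP genes were chosen with earlier results of these data known, so this contrast is a description and not a test. Fmod was 2.66-fold higher, a log2 fold change of 1.41 (SE 0.31, 95% interval 0.75 to 2.08, edgeR adjusted p = 0.0140). Dcn had a log2 fold change of 0.99 (SE 0.28, interval 0.40 to 1.58, edgeR adjusted p = 0.0388) and Lum of 1.01 (SE 0.29, interval 0.39 to 1.62, edgeR adjusted p = 0.0443), so that both were about as far apart from intact males. Prelp had a log2 fold change of 0.84 (SE 0.20, interval 0.42 to 1.27, edgeR adjusted p = 0.0188), and Bgn of 0.59 (SE 0.14, interval 0.29 to 0.90, edgeR adjusted p = 0.0201), the smallest change with the smallest SE. For each of the 5 genes, all 5 GDX males were above the mean of the intact males. None of the 5 genes separated the male groups without overlap, which 3.76% of all genes tested did with GDX males on top. The direction was higher for each of the 5 genes in each of 19 refits, scalings and libraries left out included. In the edgeR fit given here none of the 5 SLRP genes had an adjusted p under 0.01, while each of the 5 did under at least 1 alternative.

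Some calls were lost with 1 rat left out or with the library class in the fit, which cannot be fully told apart from gonadectomy, since no GDX male was in the longer class. Without GDX male 5, the rat with the highest Bgn, Fmod and Prelp, 3 of the 5 genes were called, and the log2 fold change was 0.88 for Dcn (edgeR adjusted p = 0.102) and 0.92 for Lum (edgeR adjusted p = 0.109). Lum was also lost without GDX male 4 (log2 fold change 0.86, edgeR adjusted p = 0.114) and without intact male 5 (log2 fold change 0.88, edgeR adjusted p = 0.102), while with any 1 rat left out the log2 fold changes of Dcn and Lum were at least 0.84. With the library class as a term Bgn and Fmod were called, and the log2 fold changes were 1.06 for Dcn (edgeR adjusted p = 0.161), 1.19 for Lum (edgeR adjusted p = 0.136) and 0.55 for Prelp (edgeR adjusted p = 0.230). With shorter-class libraries alone, which leaves 2 intact males, Lum and Fmod were called and Dcn had a log2 fold change of 1.06 (edgeR adjusted p = 0.133), Bgn of 0.67 (edgeR adjusted p = 0.125) and Prelp of 0.55 (edgeR adjusted p = 0.226). Over all alternatives the adjusted p ranged from 0.00973 to 0.161 for Dcn, 0.00116 to 0.125 for Bgn, 0.00616 to 0.136 for Lum, 0.000346 to 0.0958 for Fmod and 0.00137 to 0.230 for Prelp.

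**Figure D2:**
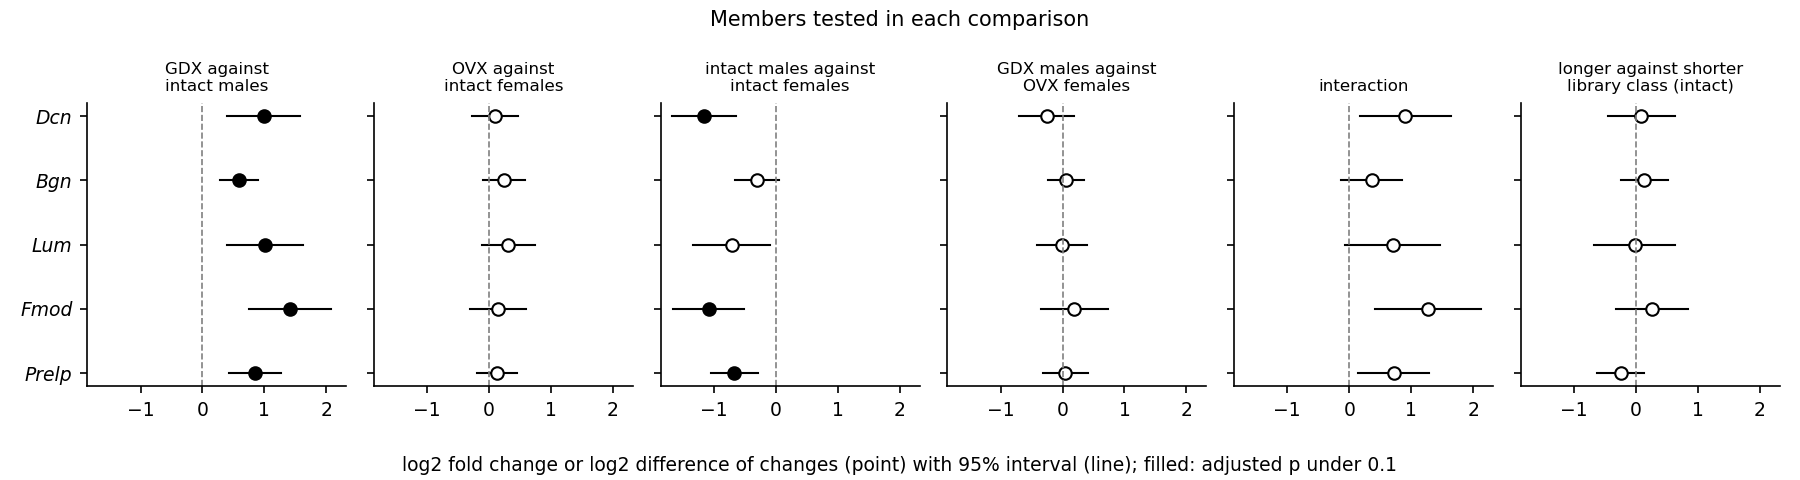
Log2 fold changes of Dcn, Bgn, Lum, Fmod and Prelp (points) with 95% intervals (lines) in the 6 comparisons, filled where the adjusted p was under 0.1; the interaction panel shows the male minus the female log2 change. The points are filled for 5 genes in the male comparison and for 3 genes between intact males and intact females.

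The female comparison asks the same of the ovaries. No SLRP gene was called between OVX and intact females by edgeR, by DESeq2 or by edgeR's exact test, and 0 of the 5 had an unadjusted p under 0.05. Over all genes, 0.0268% were called higher and 0.00671% lower, so 0 of 5 is near the background. The log2 fold changes were 0.09 for Dcn (95% interval -0.28 to 0.47), 0.24 for Bgn (-0.10 to 0.57), 0.31 for Lum (-0.11 to 0.73), 0.14 for Fmod (-0.31 to 0.60) and 0.13 for Prelp (-0.20 to 0.46), with an edgeR adjusted p from 0.635 to 0.922. The signs of Dcn and Fmod were not stable, since Dcn was at -0.068 without OVX female 3 and Fmod at -0.0026 without intact female 2.

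The difference between both responses was tested as the interaction of sex and gonadectomy. The change in males exceeded that in females by a log2 difference of 0.90 for Dcn (95% interval 0.17 to 1.64, edgeR adjusted p = 0.302), 0.36 for Bgn (-0.13 to 0.85, edgeR adjusted p = 0.588), 0.70 for Lum (-0.06 to 1.47, edgeR adjusted p = 0.471), 1.27 for Fmod (0.42 to 2.13, edgeR adjusted p = 0.211) and 0.72 for Prelp (0.15 to 1.29, edgeR adjusted p = 0.291). With edgeR and with DESeq2 0 of the 5 genes were called, against 0.09% of 15562 genes called higher and 0.0257% lower by edgeR. At an unadjusted edgeR p under 0.05 there were 3 of the 5 genes, Dcn, Fmod and Prelp, against 1810 of the 15562 genes. The SLRP genes are thus not shown to respond differently in males and females. Without GDX male 1, the GDX rat with the lowest Dcn, Bgn, Lum, Fmod and Prelp, Fmod was called (log2 difference 1.43, edgeR adjusted p = 0.0949, against 0.0949 to 0.442 over all alternatives). The interaction rests on the same rats as the male and the female comparison, which share no rats with each other.

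Between the intact sexes, 3 of the 5 genes were lower in males, with 2.56% of 14937 genes called lower and 1.45% higher. Dcn had a log2 fold change of -1.16 (SE 0.24, edgeR adjusted p = 0.0211), with all 5 intact males below the mean of the intact females. Fmod had a log2 fold change of -1.08 (SE 0.27, edgeR adjusted p = 0.0468) and Prelp of -0.67 (SE 0.18, edgeR adjusted p = 0.0664), each again with 5 of 5 intact males below the mean of the intact females. Lum at -0.71 (95% interval -1.33 to -0.09, edgeR adjusted p = 0.252) and Bgn at -0.30 (95% interval -0.66 to 0.06, edgeR adjusted p = 0.421) did not pass. These calls and those of the male comparison rest on the same 5 intact males.

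Of these calls, Dcn passed with any single rat left out. Fmod was lost without intact male 2, 5 or 6 or intact female 5 or 6 (adjusted p from 0.101 to 0.119, with log2 fold changes of -0.95 to -1.29 over all rats left out in turn), and Prelp without intact male 1 or 6 or intact female 3, 4, 5 or 6 (adjusted p from 0.107 to 0.170, with log2 fold changes of -0.54 to -0.77). Lum was called without intact male 3, the rat with the highest Lum among intact males (log2 fold change -1.05, edgeR adjusted p = 0.0523). With 2 intact males and 2 intact females of the shorter class alone 0 genes were called, with a log2 fold change of -1.17 for Dcn (edgeR adjusted p = 0.289), -1.28 for Fmod (edgeR adjusted p = 0.256) and -0.39 for Prelp (edgeR adjusted p = 0.441). Over all alternatives the adjusted p ranged from 0.000624 to 0.289 for Dcn, 0.00485 to 0.256 for Fmod, 0.0147 to 0.441 for Prelp and 0.0523 to 0.462 for Lum.

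Between GDX males and OVX females, whose 11 libraries are all of the shorter class, 0 of the 5 SLRP genes were called by edgeR, DESeq2 or edgeR's exact test, and 0 had an unadjusted p under 0.05. Over all 15084 genes 0.119% were called higher and 0.113% lower. The log2 fold changes were -0.25 for Dcn (95% interval -0.70 to 0.19), 0.06 for Bgn (-0.23 to 0.35), -0.01 for Lum (-0.42 to 0.40), 0.19 for Fmod (-0.35 to 0.73) and 0.05 for Prelp (-0.32 to 0.41), with an edgeR adjusted p from 0.753 to 0.994. Without GDX male 5 the values of Bgn, Fmod and Prelp changed sign, to -0.071, -0.16 and -0.11.

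The library class was compared in the 11 intact rats with sex as a term. No SLRP gene was called by edgeR or DESeq2, 0 of the 5 had an unadjusted p under 0.05, and over all 15401 genes 0% were called higher and 0.00649% lower in the longer class. The log2 fold changes of longer against shorter ranged from -0.25 for Prelp (95% interval -0.62 to 0.13) to 0.26 for Fmod (95% interval -0.32 to 0.85). Prelp, the gene with the largest decrease in the longer class, averaged 11.4 CPM in 3 longer and 16.3 CPM in 2 shorter libraries of intact males, but 21.2 CPM in 4 longer and 21.6 CPM in 2 shorter libraries of intact females. It was the gene whose change in GDX males became smaller with the class as a term.

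The 5 genes rose and fell together from rat to rat. Over the 22 rats, Pearson's r of log2 CPM in the 10 pairs lay between 0.729 and 0.905 and Spearman's rho between 0.680 and 0.914 (permutation tests, adjusted p over the 10 pairs at most 6e-05 for r and 0.00057 for rho). The rats come from 4 groups, so the group means were also subtracted. Then r lay between 0.552 and 0.890 and rho between 0.486 and 0.864, with permutation within groups giving an adjusted p from 5e-05 to 0.0182 for r and from 0.0001 to 0.0396 for rho. The 2 rats farthest from the median of 1 gene of each pair, the earlier in the order Dcn, Bgn, Lum, Fmod and Prelp, were also left out. Then r of the pairs lay between 0.652 and 0.879, or between 0.552 and 0.877 with group means subtracted. Rats far from the median of the other gene alone stayed in. Within the 15 libraries of the shorter class r ranged from 0.616 to 0.913, and within the 7 of the longer class from 0.620 to 0.917.

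The neighbours Dcn and Lum had the highest r of the 10 pairs, 0.905 over all rats and 0.890 with group means subtracted. Bgn and Fmod, which are not neighbours, followed with 0.886 and 0.864, and the neighbours Prelp and Fmod had 0.873 and 0.749. Lum and Prelp had the lowest r with group means subtracted, 0.552.

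Of 15557 other genes, Col3a1 was most alike to the mean log2 CPM of the 5 SLRP genes over the 22 rats (r = 0.973, rho = 0.965). Itgbl1 (r = 0.966), Col12a1 (r = 0.963), AABR07068316.1 (r = 0.960) and Vim (r = 0.959), the gene of the intermediate filament vimentin, followed. With group means subtracted these were Itgbl1 (r = 0.952), Col3a1 (r = 0.939), Kcnj13 (r = 0.936), Cyp26b1 (r = 0.927) and Col12a1 (r = 0.918). These are the highest values of a search and are given without a test.

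The other genes of the SLRP pathway were taken from lists. Of the other 8 members of the family, 5 were tested in males and 0 were called, with a median log2 fold change of -0.17 against 0.99 for the 5 SLRP genes described and 0.00 over all genes tested. Their most abundant gene was Chadl. Enzymes that build the linker and the chondroitin or dermatan sulfate chain carried by decorin and biglycan were called higher in 1 of 21 and lower in 3 of 21 (Dsel at 0.49, Chpf2 at -0.23, Chpf at -0.28 and B3galt6 at -0.42 on the log2 scale), with a median of -0.07. Of 8 enzymes for keratan sulfate 1 was called, B4galt1 (log2 fold change 0.59, edgeR adjusted p = 0.0867), with a median of 0.08.

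Among the 11 collagens tested that SLRP proteins bind or that lie beside them in fibrils, 8 were called higher in GDX males and 0 lower, with a median log2 fold change of 0.72. These included Col6a2 (1.00, edgeR adjusted p = 0.00255), Col6a1 (1.23, edgeR adjusted p = 0.00288) and Col12a1 (1.13, edgeR adjusted p = 0.00529). Of 18 signalling partners, 9 were called higher, among them Kdr (0.64), Ccn2 (1.04) and the betaglycan gene Tgfbr3 (0.44), and 1 lower, Vegfa (-0.19), with a median of 0.24. Of 13 genes for processing and cleavage 3 were called higher, Timp3 (0.48), Mmp2 (0.47) and Pcolce (1.05), and the median was 0.12. Between the intact sexes 7 of the 11 collagens were lower in males and 1, Col5a3, was higher, with a median of -0.79. Of the 18 signalling partners 2 were lower, Ccn2 (-1.02) and Tgfbr3 (-0.49), and 1 was higher, Vegfa (0.29), with a median of -0.07. Of the 13 genes for processing and cleavage 1 was lower, Timp3 (-0.49), and 1 was higher, Mmp14 (0.44), with a median of 0.0043. In the female comparison Kdr (log2 fold change 0.77, edgeR adjusted p = 0.0966) was called, and 0 of the 11 collagens were.

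**Figure D3:**
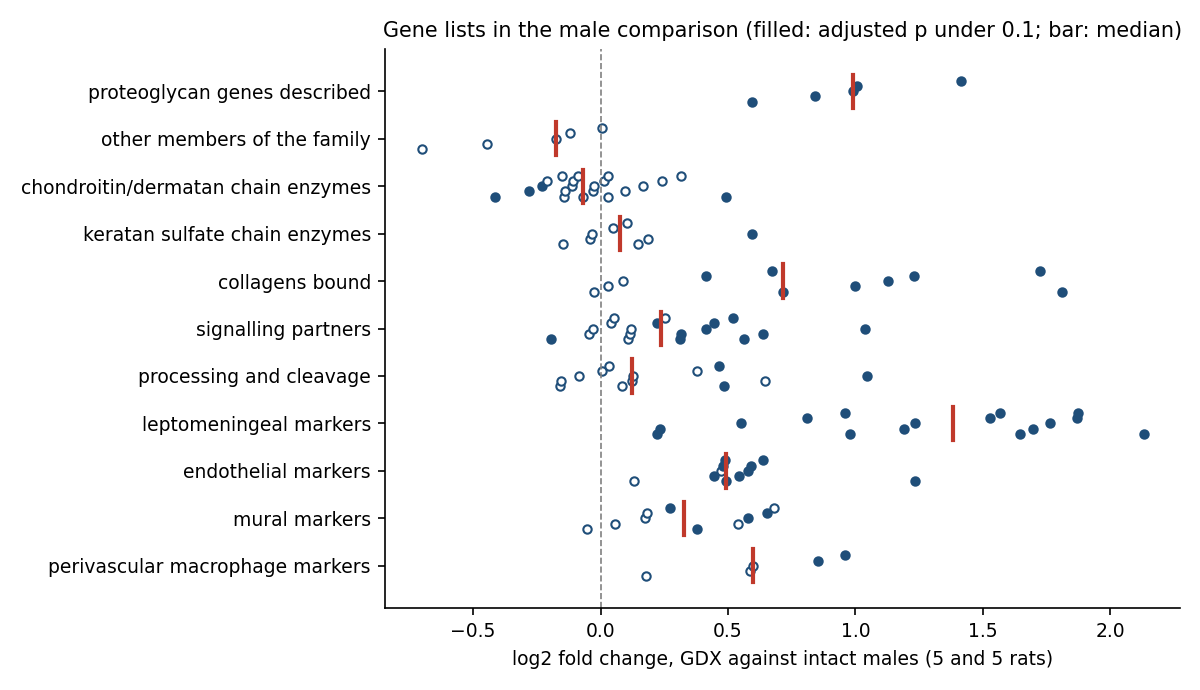
Log2 fold change in GDX against intact males of each gene tested in 11 lists, filled where the adjusted p was under 0.1, with a bar at each list's median. The 5 SLRP genes have a median of 0.99, the chondroitin and dermatan sulfate enzymes of -0.07 and the leptomeningeal markers of 1.38.

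Markers of leptomeningeal cells and fibroblasts, from a list without matrix genes, moved with the SLRP genes. Like the SLRP genes, the list was chosen with earlier results of these data known. In GDX males 16 of 16 tested were called higher (median log2 fold change 1.38), led by Foxc1 (1.19), Slc6a13 (1.57) and Slc13a4 (1.76), and in intact males 11 of 16 were called lower than in intact females, led by Slc16a11, Slc6a13 and Slc13a3. Their levels summed to 164, 158, 151, 137 and 132 CPM in intact males 1, 2, 3, 5 and 6 and to 190, 204, 227, 336 and 241 CPM in GDX males 1, 2, 4, 5 and 6. In females the lowest, median and highest sums were 172, 228 and 257 CPM in intact rats and 198, 234 and 295 CPM after OVX. The most abundant gene was Pdgfra, which oligodendrocyte precursors also express, and 0 of the 17 genes found were at 0. GDX male 5 was the highest and GDX male 1 the lowest GDX rat for these markers, as for Bgn, Fmod and Prelp. Over the 22 rats the mean log2 CPM of the 5 SLRP genes and that of these markers had r = 0.930 and rho = 0.935, with r = 0.840 and rho = 0.818 after subtracting group means and r = 0.892 without the 2 rats farthest from the median marker level. Within the shorter class r was 0.981 over 15 rats, and within the longer class 0.838 over 7 rats. Intact male 3 stood apart, with a mean of 3.67 for the SLRP genes, the highest of the intact males, and of 1.60 for the markers. The part of these cells in the SLRP result was not tested.

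**Figure D4:**
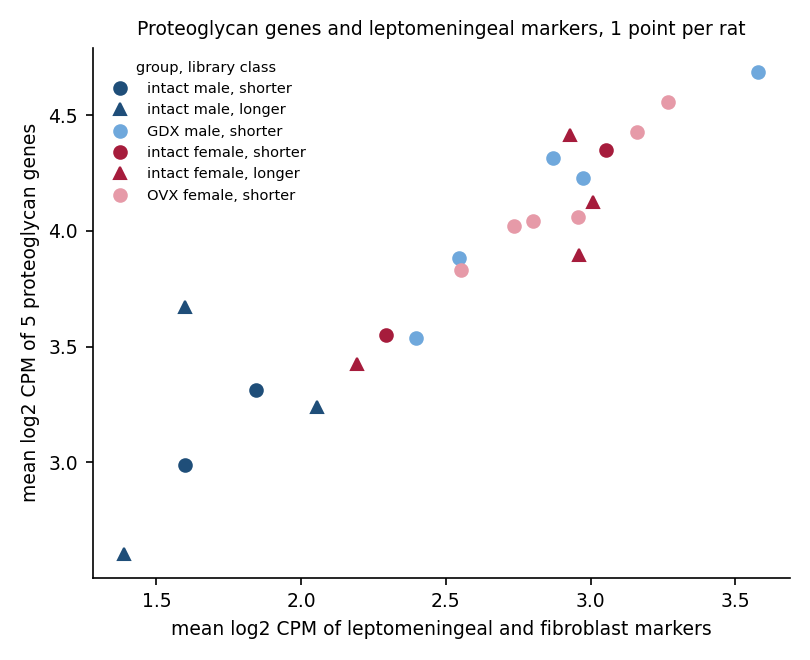
Mean log2 CPM of Dcn, Bgn, Lum, Fmod and Prelp against the mean log2 CPM of leptomeningeal and fibroblast markers, 1 point per rat, coloured by group, with circles for the shorter and triangles for the longer library class. The points lie along a rising line (r = 0.930 over 22 rats), with intact male 3 above it.

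Other cells of the borders of the cord moved with the SLRP genes in part. Perivascular macrophage markers had r = 0.870 and rho = 0.836 with the mean of the SLRP genes over 22 rats, and 0.711 and 0.701 with group means subtracted. Schwann cell and root markers, without 1 gene of the list that is not used here, had r = 0.834 and rho = 0.789, and 0.715 and 0.685 with group means subtracted. For endothelial markers r was 0.385 (rho = 0.326) and turned to -0.286 with group means subtracted, although 9 of 11 were called higher in GDX males, led by Cdh5, Tek and Slco1a4. Mural markers had r = 0.241 (rho = 0.267), and -0.284 with group means subtracted. In the macrophage list 2 of 5 genes, Mrc1 and F13a1, were called higher in GDX males, with 0 genes at 0 and Mrc1 as the most abundant. Its summed levels were 19.5, 20.8, 15.1, 16.0 and 10.8 CPM in intact males 1, 2, 3, 5 and 6 and 21.8, 24.2, 26.8, 31.9 and 26.3 CPM in GDX males 1, 2, 4, 5 and 6. Of 6 Schwann cell and root markers tested, all 6 had a positive log2 fold change in GDX males (median 0.48) and 1, Prx, was called higher, while 3, Pmp22, Prx and Drp2, were called lower in intact males than in intact females. The median and the counts of calls depend on leaving out the gene not used, and do not stand for the whole list. Their summed levels were 259, 234, 267, 236 and 268 CPM in the intact males and 276, 274, 278, 288 and 289 CPM in the GDX males in the same order of rats, with 0 genes at 0 and with Sox10, which oligodendrocytes also express, as the most abundant gene. The sums did not overlap, but the mean log2 CPM of the root markers did, at 3.87, 3.48, 4.34, 3.13 and 3.12 in the intact males and 3.86, 3.94, 4.42, 4.45 and 4.46 in the GDX males. Intact male 3, which stood above the leptomeningeal line, was the highest of the intact males by mean log2 CPM. By summed CPM intact male 6 was slightly higher. The part of these cells in the SLRP result was not tested.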

How the data were processed

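RNA-seq libraries of 22 rats were analysed from the deposited counts, whole numbers of reads per gene that the authors had not normalized. The paper names Hisat2 and Subread featureCounts with the Rnor_6.0 genome, while the submitters' processing notes name TopHat2 2.0.13, so the aligner is uncertain, and strand and multi-mapping settings are not given in the sources used here. Columns were matched to rats by name, and 1 group of columns spelled "Inact" was read as intact males.

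Tests were quasi-likelihood fits of edgeR 4.0.16 under R 4.3.3, after filterByExpr and TMM scaling. All genes tested entered the Benjamini-Hochberg adjustment, and a gene was called at an adjusted p under 0.1. The p-values measure spread between rats. The 2 groups compared were fitted alone, the interaction over 22 rats with 4 group means, and the library class with sex as a term. A prior count of 2 was added for log2 CPM. DESeq2 1.42.0, RLE factors, other filters and levels, the library class, single rats removed in turn and a block for rat number were alternatives. The pipeline was tested on simulated data. No pair of libraries within a group was a duplicate, since the chi-square per degree of freedom was 5.23 or more in all 50 pairs. Reads carried no molecular identifiers used here, so limits for 0 counts cover counting error alone.

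Named are all 10 members, from each gene list up to 3 called genes per direction, taken by adjusted p, in marker lists also the most abundant gene and genes at 0, and the 5 genes most alike to the members' mean. Members and lists were chosen with earlier results of these data known. Promoter sequences and gene order are from RefSeq (GRCr8), not the build of the counts. Genes not matched by symbol and comparisons of GDX males with intact females are not analysed here.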

Additional observations from a re-analysis of the deposited data

Results flagged for a closer look

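In 4 of 36 sets of values searched, 1 value stood apart from the others by Dixon's test at 95%, where chance gives about 1 in 20. Each set held 1 gene or 1 mean of genes in 1 group of rats. The sets share rats and are not independent. All 4 were of Ogn and Aspn, which rest on 14 reads or fewer per library. Ogn was at 0.369 CPM in intact male 2, with the next intact male at 0.0705 CPM. Ogn was at 1.01 CPM in intact female 4, with the next intact female at 0.301 CPM. Aspn was at 0.0652 CPM in GDX male 6, a single read, and at 0.151 CPM in intact female 6, which is 2 reads, with 0 in the other rats of each group. Where 1 rat alone has reads, this test finds it whatever the value, so both values of Aspn say no more than that, and the share expected by chance does not hold for such groups. No value of Dcn, Bgn, Lum, Fmod or Prelp stood apart in this way.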

How the results depend on the processing

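The direction of all 5 SLRP genes in GDX against intact males and between the intact sexes was the same in each refit. The number of SLRP genes called in the male comparison was 5, and it was 0 at an adjusted p under 0.01, 2 with the library class as a term, 2 with the shorter class alone, and 3 to 5 with 1 rat left out. Of all genes tested, 796 of 14931 were called with the class as a term and 440 of 15553 with the shorter class alone. Between the intact sexes the number of SLRP genes called was 3. It was 5 with unadjusted p under 0.1, a level that 3420 of all 14937 genes passed. It was 0 at an adjusted p under 0.01, 0 with the shorter class alone, and 1 to 4 with 1 rat left out. For the interaction the number of SLRP genes called was 0, and it was 0 to 1 with 1 rat left out. With unadjusted p under 0.1 it was 4, against 2995 of all 15562 genes. Apart from the changed level and the smaller number of rats, the cause was not tested. In the other 3 comparisons the number of SLRP genes called was 0 under each alternative run.

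Intact and gonadectomized rats of the same sex and number did not deviate together, with r between -0.08 and 0.03 over 10 pairs. These values gave no sign of a pairing by rat number within each sex, but they cannot exclude one. Males and females with the same number were not compared in this way. With the replicate block 1 of the 5 genes was called between the intact sexes, and Bgn missed the level in males (edgeR adjusted p = 0.101). The block changed the sign of Lum between GDX males and OVX females to 0.076, and Fmod (edgeR adjusted p = 0.174) and Prelp (edgeR adjusted p = 0.204) missed the level between the intact sexes.

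Changes of sign occurred in 25 of 610 refits of single genes, each of a value that was not called. With 1 rat left out, Dcn ranged from -0.068 to 0.21 and Fmod from -0.0026 to 0.24 for OVX against intact females. Between GDX males and OVX females Bgn ranged from -0.071 to 0.16, Lum from -0.15 to 0.084, Fmod from -0.16 to 0.35 and Prelp from -0.11 to 0.16. For the library class Dcn ranged from -0.11 to 0.29, Bgn from -0.013 to 0.30 and Lum from -0.28 to 0.33.

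Over all genes, 1995 were called in the male comparison, and 796 with the class as a term, 440 with the shorter class alone, 1274 with the block and 278 at 0.01. The number was 4798 with unadjusted p (under 0.1, here and below) and 1202 (without GDX male 5) to 2446 (without GDX male 1) with 1 rat left out. The intact sexes gave 599 genes, 255 with the block, 34 with the shorter class alone, 62 at 0.01, 3420 with unadjusted p and 352 to 777 with 1 rat left out. OVX against intact females gave 5 genes, Kdr among them, 174 with DESeq2, 95 with the exact test, 11 without a filter, 9 with all rats in 1 fit, 3 with the class, 0 with the block or at 0.01, 2518 with unadjusted p and 0 to 113 with 1 rat left out. The interaction gave 18 genes, 243 with DESeq2, 33 without a filter, 6 with a filter at 1 CPM or the class, 5 with the shorter class alone, 0 with the block or at 0.01, 2995 with unadjusted p and 1 to 275 with 1 rat left out. GDX males against OVX females gave 35 genes, 130 with DESeq2, 88 with the exact test, 61 with all rats in 1 fit, 17 at 0.01 and 2439 with unadjusted p. The same comparison gave 24 genes with the block and 23 to 44 with 1 rat left out. The library class gave 1 gene, 57 with DESeq2, 210 without a filter, 2125 with unadjusted p and 0 at 0.01.

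Ogn and Aspn, with 65 and 10 reads in all, did not pass the filter on low counts.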

Other observations

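Further marker lists gave these values in GDX against intact males, set beside the 5 of 5 SLRP genes called higher. Over all 14931 genes tested, 6.78% were called higher and 6.58% lower. Of 10 mural cell markers 4 were called higher, Rgs5, Tagln, Myh11 and, outside the naming rule, Pdgfrb. All 4 erythroid rows tested were called higher, 2 rows of Hba-a2, Hbb and Slc4a1, the last outside the naming rule, and their list summed to 14.4 ± 5.60 CPM in intact and 46.6 ± 32.6 CPM in GDX males (SD, n = 5 each). Of 6 neuron markers 4 were called lower, Slc17a6, Rbfox3, Slc32a1 and, outside the naming rule, Snap25, and 1 of 7 motor neuron markers was, Slc18a3. Of 6 astrocyte markers Gfap and Aqp4 were called higher, and 1 of 6 oligodendrocyte markers, Mbp, was. None of 6 microglia markers, 4 bone and cartilage markers, 3 skeletal muscle markers, 5 cervical position genes and 1 gene of forebrain or lumbar cord passed the edgeR test.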
